A study of Mus musculus with 6 samples.

Results

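Foxp3, the 5 genes of the Ikaros zinc finger family (Ikzf1 to Ikzf5) and 3 surface genes used to tell regulatory T cells apart (Nrp1, Lrrc32 and Gpr83) were followed in CD4 T cells of the inflamed mouse colon. The 9 genes were chosen by symbol, and all 9 were found among the 55335 genes of the count table. The cells descended from naive CD4 T cells of the spleen of TcfGFP mice, which carry a GFP reporter of Tcf7, the gene of the transcription factor TCF1. They had been transferred into Rag1 KO hosts, which have no T or B cells of their own, and had induced colitis. CD4 T cells were then sorted from the colon lamina propria by GFP. Cells with GFP (TCF7+ in the titles, labelled stem-like) gave 3 libraries and cells without it (TCF7-, labelled effector) gave 3, so both groups share donor strain, host and disease. The GFP-negative libraries are called N1 to N3 and the GFP-positive ones P1 to P3, after their replicate numbers. The sources used here give neither ages nor pooling of mice, nor whether a replicate is a separate mouse. The p-values therefore reflect the spread among these libraries alone, which may be technical.

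FOXP3 is the lineage factor of regulatory T cells (Treg cells), which restrain other T cells and protect the gut from inflammation. Naive CD4 T cells can acquire FOXP3 in the intestine when they meet antigen together with TGF-beta. Ikaros factors bind DNA through zinc fingers near one end of the protein and pair with each other through fingers at the other end. They recruit repressor complexes, and Helios (Ikzf2) and Eos (Ikzf4) are best known from Treg cells.

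The libraries held 4309500 to 7462076 counts. Levels are given as CPM, the counts of a gene scaled to the depth of its library. Where a gene has no count, up to 3 counts remain possible, which is 0.430 to 0.690 CPM in these libraries. Tcf7 stood at 121, 141 and 71.3 CPM in N1 to N3 and at 237, 183 and 141 CPM in P1 to P3 (edgeR adjusted p = 0.367). All 10 T cell markers examined, Cd3e, Trac and Cd4 among them, were present in every library, and their summed level was 6330 to 8294 CPM. P3 stood apart. All 10 myeloid markers were highest there, with a sum of 7228 CPM against 134 to 194 CPM in the other 5 libraries. Stromal markers summed to 389.7 CPM there against 0.693 to 10.1 CPM elsewhere, and 6 of 7 were highest there. Epithelial markers summed to 392.6 CPM against 22.7 to 70.9 CPM, with 7 of 8 highest there. Markers of NK and innate lymphoid cells summed to 867 against 53.3 to 164 CPM. Only 2 of these 6 were highest there, Tyrobp at 487 and Fcer1g at 302 CPM. The 6 endothelial markers summed to 68.4 CPM in P3, within the 32.6 to 79.4 CPM of the other 5 libraries. Most of that sum was Pecam1, at 65.3 CPM in P3. Emcn had 17 counts in P3 and 0 elsewhere, and Esam was highest in P3 at 0.717 CPM. Kdr was at 0 there, and Cdh5 and Vwf were at 0 in all 6 libraries.

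Sequence at the start sites is shown for Foxp3 and Gpr83, the Treg genes that were at 0 in at least 2 GFP-positive libraries and have an entry among the RefSeq promoter windows (GRCm38.p6, the assembly of mm10). Each window runs from 250 bases before the start to 50 bases after it, on the plus strand. Foxp3 is at chrX:7579426-7579725 and Gpr83 at chr9:14859960-14860259. Capitals mark the Ikaros core TGGGAA or its reverse complement TTCCCA.
Foxp3: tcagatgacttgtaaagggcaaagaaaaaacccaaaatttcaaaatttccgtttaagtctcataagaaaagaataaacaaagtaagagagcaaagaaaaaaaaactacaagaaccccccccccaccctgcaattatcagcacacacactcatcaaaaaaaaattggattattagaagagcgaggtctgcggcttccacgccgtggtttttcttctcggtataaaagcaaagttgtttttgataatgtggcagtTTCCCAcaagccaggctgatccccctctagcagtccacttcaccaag
Gpr83: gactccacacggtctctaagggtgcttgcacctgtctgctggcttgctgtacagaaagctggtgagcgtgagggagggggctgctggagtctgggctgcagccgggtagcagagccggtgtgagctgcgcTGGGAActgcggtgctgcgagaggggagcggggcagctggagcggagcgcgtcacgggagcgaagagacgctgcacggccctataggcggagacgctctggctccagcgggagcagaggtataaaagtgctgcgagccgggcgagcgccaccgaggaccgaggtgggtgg
Both windows held the Ikaros core, as did 25.6% of 32851 promoter windows of the same length. Neither held the TCF/LEF core CTTTGA on either strand, which 16% of windows held, the RUNX core TGTGGT, which 16.8% held, or the forkhead core TGTTTAC, which 3.65% held. A second RefSeq start of Foxp3 (chrX:7580233-7580532) and both windows of Ikzf1 held none of these 4 motifs. In the Ikzf5 window the TCF/LEF core occurred 1 time, and in the Nrp1 window no motif occurred. These matches describe letters in the windows only.

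Of the 9 genes, 7 passed the filter on low counts, which needs about 10 counts in at least 3 libraries of usual depth, and could be tested. Foxp3 passed it through its GFP-negative libraries alone, so counts over the 7 are a description. Lrrc32 and Gpr83 did not pass and are given by their values. Foxp3 and Ikzf3 had lower values in every GFP-positive library than in any GFP-negative one, and the other 7 genes overlapped between the gates. By edgeR's quasi-likelihood test, adjusted over all genes, 0 of the 7 passed 0.05, where 12 of 11074 genes (0.108%) did. At an unadjusted p below 0.05 there were 2 of 7, Foxp3 and Ikzf3, where 10.3% of all tested genes had such a p and 5.97% were lower at such a p. DESeq2 and limma-voom also called 0 of the 7. Groups without overlap, 2 of 7, stand beside 16.0% of all tested genes, and both are lower in GFP-positive cells, as are 8.80% of all tested genes.

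**Figure D1:**
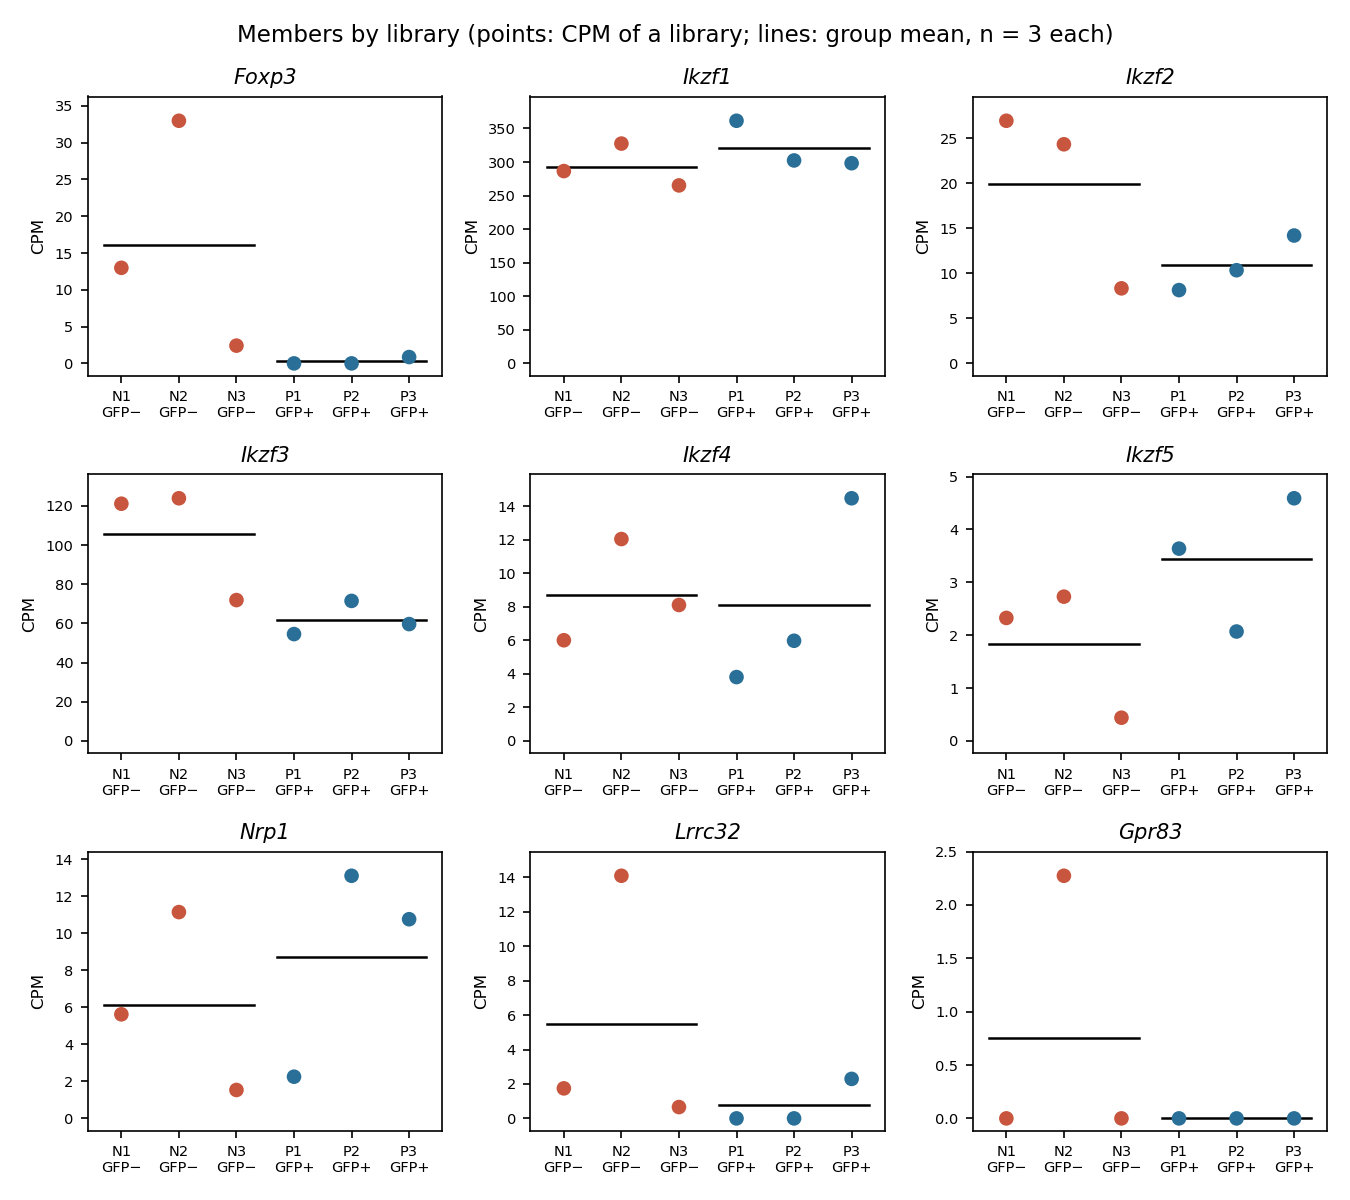
CPM (vertical axes, linear and different for each gene) of the 9 genes in the 3 GFP-negative (red) and 3 GFP-positive (blue) libraries, with group means as lines. Foxp3, Lrrc32 and Gpr83 are all highest in N2, Foxp3 and Ikzf3 do not overlap between the gates, and Ikzf1 lies between 265 and 361 CPM throughout.

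Foxp3 (ENSMUSG00000039521.13; mm10 chromosome X, 7573644 to 7595245, plus strand) had 67, 145 and 11 counts in N1 to N3, and 0, 0 and 6 counts in P1 to P3. In CPM these were 13.0, 33.0 and 2.41 against 0, 0 and 0.861. Every GFP-negative library thus lay above every GFP-positive one, and most of the GFP-negative counts, 65.0% of 223, came from N2. The GFP-negative libraries themselves differed more than counting error, since the exact 95% binomial intervals were 10.1 to 16.5, 27.8 to 38.8 and 1.204 to 4.32 CPM. P3 had an interval of 0.316 to 1.87 CPM, which overlapped that of N3. Overlap of 2 separate intervals cannot settle whether this narrowest gap between the gates exceeds counting error. PCR copies carry no molecular identifier here, so such intervals hold counting error and nothing else.

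The group means of Foxp3 were 16.1 ± 15.5 CPM in GFP-negative and 0.287 ± 0.497 CPM in GFP-positive libraries (SD, n = 3 each). The fitted log2 fold change, GFP-positive minus GFP-negative here and throughout, was -5.52 ± 1.29 (SE; 95% interval -8.47 to -2.57; edgeR adjusted p = 0.18). This value depends on the prior count, since 2 libraries are at 0. Against P1 and P2 together, where 3 counts correspond to 0.296 CPM, the GFP-negative mean was at least 54.4-fold higher, and without N2 at least 26.0-fold higher. The nearest libraries of the 2 gates, N3 and P3, differed 2.80-fold. Without P3 the fitted value was -9.28 (edgeR adjusted p = 0.0655), and without N2 it was -4.52 (edgeR adjusted p = 0.611). In bulk libraries, fewer Foxp3-expressing cells and less Foxp3 mRNA per cell cannot be told apart.

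Exons of Foxp3 overlap those of other genes: of 4577 exonic bases, 856 are shared with Ccdc22, Gm36995 and Ppp1r3f on the other strand and 853 with Flicr, a long noncoding RNA gene at the Foxp3 locus. The libraries do not record strand, and the sources used here do not say how shared reads were counted. Flicr had 3, 2 and 15 counts in N1 to N3 and 1, 1 and 0 counts in P1 to P3, so its highest library, N3, was the GFP-negative library with the least Foxp3. Ppp1r3f stood at 1.10 to 2.27 CPM in GFP-negative and 1.15 to 5.02 CPM in GFP-positive libraries. Ccdc22 and Gm36995 were listed at 0 in all 6.

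Among the Ikaros genes, Ikzf1, which encodes Ikaros itself and is needed for lymphocyte development (ENSMUSG00000018654.17; chromosome 11, 11685003 to 11772926, plus strand), was the most abundant and the steadiest. It stood at 286, 327 and 265 CPM in N1 to N3 and at 361, 302 and 298 CPM in P1 to P3. The groups overlapped, and the log2 fold change was 0.13 ± 0.15 (SE; 95% interval -0.18 to 0.45; edgeR adjusted p = 0.822). The interval leaves out a 2-fold difference in either direction.

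Ikzf3 encodes Aiolos, a close relative of Ikaros that is found in activated and differentiated lymphocytes (ENSMUSG00000018168.8; chromosome 11, 98464902 to 98546031, minus strand). Its level was 121, 124 and 71.9 CPM in N1 to N3 against 54.6, 71.5 and 59.7 CPM in P1 to P3. The groups met closely, with 71.9 CPM in N3 and 71.5 CPM in P2. Between 311 and 625 counts per library lay behind group means of 106 ± 29.3 and 61.9 ± 8.69 CPM (SD, n = 3 each). The log2 fold change of Ikzf3 was -0.77 ± 0.22 (SE; 95% interval -1.25 to -0.29; unadjusted p = 0.00412, edgeR adjusted p = 0.22). It ranged from -0.98 to -0.65 when each library was left out in turn, and was -0.74 without P3.

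Ikzf2 encodes Helios, a factor of thymus-derived and activated Treg cells (ENSMUSG00000025997.13; chromosome 1, 69531214 to 69687245, minus strand). It stood at 26.9, 24.3 and 8.33 CPM in N1 to N3 and at 8.14, 10.3 and 14.2 CPM in P1 to P3. N1 and N2 were above all other libraries, while N3 lay within the GFP-positive range. The log2 fold change was -0.86 ± 0.45 (SE; 95% interval -1.85 to 0.12; edgeR adjusted p = 0.567), and -1.10 without P3 (adjusted p = 0.411). The order of the GFP-negative libraries was not that of Foxp3, which was highest in N2.

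Ikzf4 encodes Eos, a corepressor partner of FOXP3 (ENSMUSG00000002578.18, matched to the annotation without its version; chromosome 10, 128630843 to 128645991, minus strand). It had 6.01, 12.1 and 8.11 CPM in N1 to N3 and 3.81, 5.98 and 14.5 CPM in P1 to P3. The lowest and the highest of the 6 values were both GFP-positive. The highest was in P3, the library with myeloid and stromal transcripts, whose part in this value was not tested. With all libraries the log2 fold change was -0.10 ± 0.57 (SE; 95% interval -1.34 to 1.15; edgeR adjusted p = 0.978), and without P3 it was -0.83 (edgeR adjusted p = 0.652).

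Ikzf5 encodes Pegasus, the most divergent factor of the family (ENSMUSG00000040167.16; chromosome 7, 131388652 to 131410521, minus strand). Only 12, 12 and 2 counts in N1 to N3 and 21, 9 and 32 counts in P1 to P3 fell on it. That is 2.33, 2.73 and 0.439 CPM against 3.64, 2.07 and 4.59 CPM, with overlap between the gates. The log2 fold change was 0.90 ± 0.88 (SE; 95% interval -1.01 to 2.82; edgeR adjusted p = 0.793). Its level is uncertain, because 4835 of its 5721 exonic bases overlap exons of Pstk and Gm44624 on the other strand, and 81.4% of its 50-base stretches also occur in transcripts of other genes. Pstk stood at 13.8 to 20.2 CPM in GFP-negative and 15.8 to 23.4 CPM in GFP-positive libraries. For Ikzf1 and Ikzf3 no 50-base stretch was shared with another gene, and for Ikzf2, Ikzf4 and Foxp3 0.819%, 0.53% and 23.1% were. No such stretch was shared between any pair of the 9 genes.

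**Figure D2:**
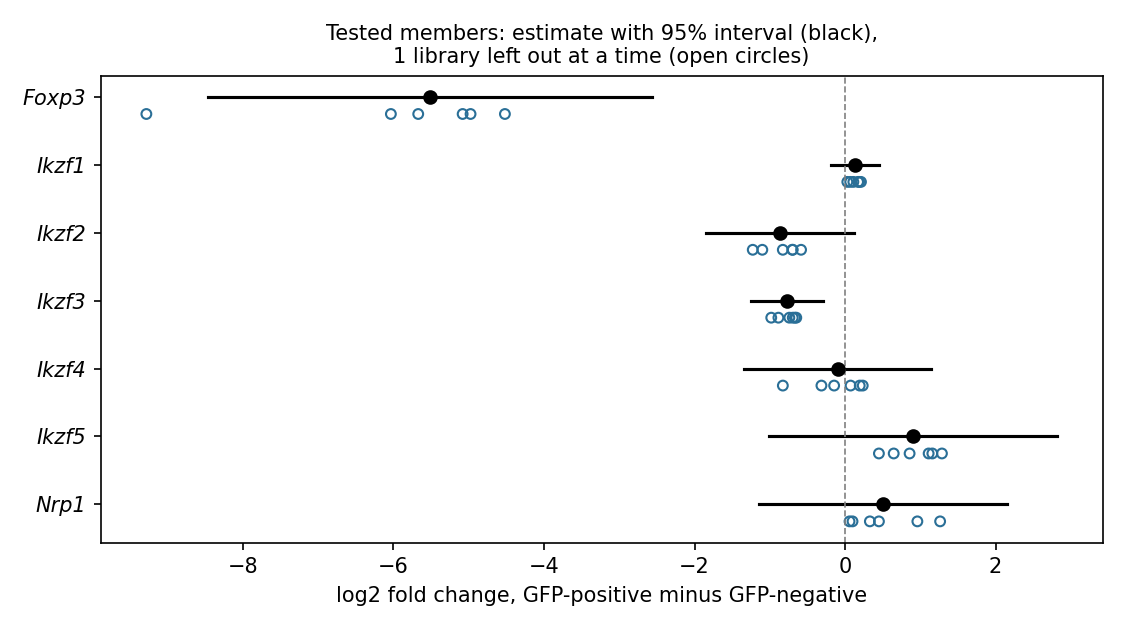
Log2 fold change (horizontal axis, GFP-positive minus GFP-negative) of the 7 tested genes, with the estimate and 95% interval in black and the 6 values with 1 library left out as open circles. The intervals of Foxp3 (-8.47 to -2.57) and Ikzf3 (-1.25 to -0.29) lie below 0 and the other 5 include 0.

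Levels of different genes were compared in TPM, which divides by gene length. Ikzf1 had 148 ± 19.7 TPM in GFP-negative and 156 ± 28.5 TPM in GFP-positive libraries (SD, n = 3 each), and Ikzf3 followed with 35.3 ± 10.3 and 19.7 ± 2.89 TPM. In GFP-negative libraries Foxp3 came next with 10.4 ± 10.2 TPM, then Ikzf2 with 5.01 ± 2.57, Ikzf4 with 3.95 ± 1.48, Lrrc32 with 3.49 ± 4.79, Nrp1 with 1.84 ± 1.49, Ikzf5 with 0.941 ± 0.638 and Gpr83 with 0.446 ± 0.772 TPM. In GFP-positive libraries Ikzf4 had 3.37 ± 2.10, Ikzf2 2.58 ± 0.522, Nrp1 2.43 ± 1.58, Ikzf5 1.66 ± 0.562, Lrrc32 0.419 ± 0.725 and Foxp3 0.161 ± 0.278 TPM, with Gpr83 at 0. Below Ikzf3, neighbours in the GFP-negative order differed by less than the larger of their SDs, and in the GFP-positive order only Ikzf5 and Lrrc32 differed by more. By these means Foxp3 held the third place of the 9 in one gate and the eighth in the other. In N3 alone it had 1.51 TPM, below Ikzf4 with 3.59 and Ikzf2 with 2.05 TPM.

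The make-up of Ikaros family mRNA does not depend on how libraries are scaled. Of the summed TPM of the 5 genes, Ikzf1 held 73.9%, 75.3% and 81.7% in N1 to N3 and 88.5%, 83.5% and 82.3% in P1 to P3. Ikzf3 held 20.6%, 18.8% and 14.6% against 8.81%, 13.0% and 10.9%. Both shares were without overlap between the gates. These 2 genes made up most of the sum in every library, so 1 share falls as the other rises. The 2 shares and the ratio below are therefore not separate results, and Ikzf1 itself overlapped in CPM. The ratio of Ikzf1 to Ikzf3 was 3.58, 4.004 and 5.59 in N1 to N3 and 10.04, 6.41 and 7.57 in P1 to P3, with means of 4.39 ± 1.06 and 8.01 ± 1.85 (SD, n = 3 each). Ikzf2, Ikzf4 and Ikzf5 together filled the rest, none above 3.58% in any library, and their shares overlapped. Family totals averaged 193 ± 32.4 TPM in N1 to N3 and 183 ± 26.2 TPM in P1 to P3. These ratios were computed with earlier results for Ikzf3 known and carry no test.

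**Figure D3:**
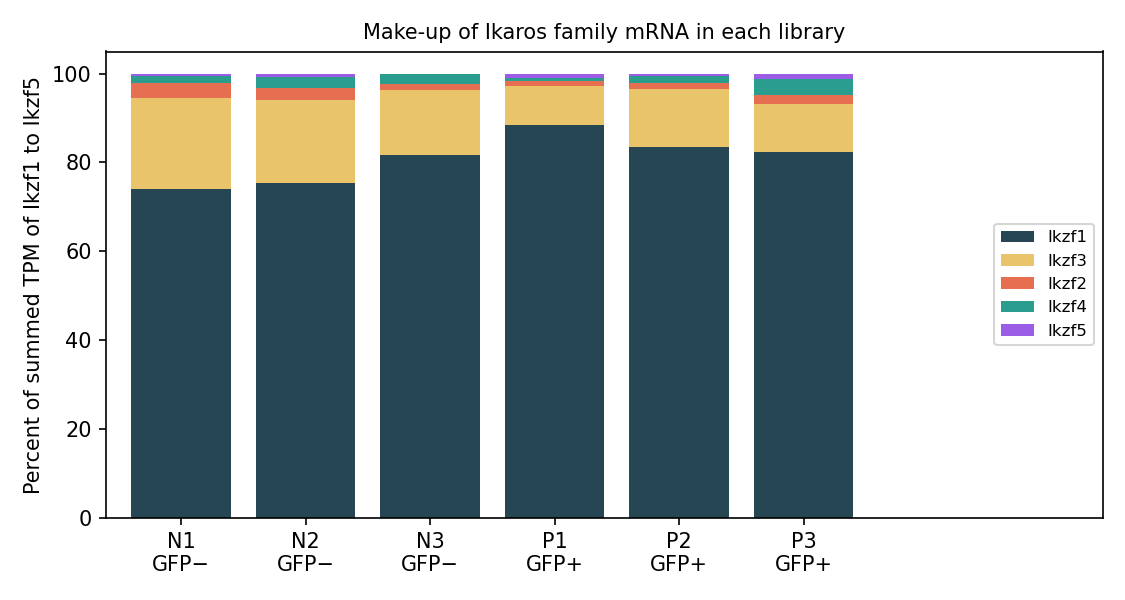
Share of each Ikaros family gene in the summed TPM of Ikzf1 to Ikzf5 (vertical axis, percent) in the 6 libraries. The Ikzf3 segment spans 14.6% to 20.6% in the 3 GFP-negative libraries and 8.81% to 13.0% in the 3 GFP-positive ones, and Ikzf1 fills most of every bar.

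The 3 surface genes did not share 1 pattern. Nrp1 encodes neuropilin-1, a coreceptor for semaphorins and VEGF that marks many thymus-derived Treg cells and is also found on dendritic and endothelial cells (ENSMUSG00000025810.9; chromosome 8, 128358604 to 128503363, plus strand). It had 5.62, 11.1 and 1.53 CPM in N1 to N3 and 2.25, 13.1 and 10.8 CPM in P1 to P3. High and low libraries occurred in both gates. The log2 fold change was 0.51 ± 0.76 (SE; 95% interval -1.14 to 2.16; edgeR adjusted p = 0.874). It was 0.33 without P3 (edgeR adjusted p = 0.933) and 1.26 without N2, the ends of the leave-one-out range being 0.06 and 1.26. P2 had the highest value of Nrp1 with 146 CPM of summed myeloid markers, which is within the range of the GFP-negative libraries. P3, with the third highest Nrp1, held the myeloid, stromal and Emcn transcripts given above, while its endothelial sum was within the range of the other libraries. Its antigen-presenting cell markers, given below for Lrrc32, were also high. The part of these transcripts in the Nrp1 values of P2 and P3 was not tested.

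Lrrc32 encodes GARP, which holds latent TGF-beta on the surface of activated Treg cells (ENSMUSG00000090958.2; chromosome 7, 98489283 to 98502181, plus strand). Its counts were 9, 62 and 3 in N1 to N3 and 0, 0 and 16 in P1 to P3, or 1.74, 14.1 and 0.658 CPM against 0, 0 and 2.29 CPM. N2 held 83.8% of the GFP-negative counts. The gates overlapped, since P3 lay above N1 and N3. The 8 antigen-presenting cell markers summed to 7070 CPM in P3 against 190 to 442 CPM in the other 5 libraries, with 7 of the 8 highest in P3, and their part in its Lrrc32 value was not tested. With no count, up to 0.520 CPM in P1 and 0.690 CPM in P2 remain possible, and the 3 counts of N3 have an exact 95% binomial interval of 0.136 to 1.92 CPM, so no difference between N3 and these 2 libraries was detectable at this depth. With no filter, edgeR gave Lrrc32 a log2 fold change of -2.76 ± 1.12 (SE; adjusted p = 0.297).

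Gpr83 encodes a G protein-coupled receptor enriched in Treg cells (ENSMUSG00000031932.14; chromosome 9, 14860210 to 14870789, plus strand). It was detected only in N2 among the 6 libraries, with 10 counts or 2.27 CPM (exact 95% binomial interval 1.09 to 4.18). The other 5 had 0 counts, which allows up to 0.430 to 0.690 CPM. N2 thus had the highest level of Foxp3, Lrrc32 and Gpr83, and also of Ikzf3. In Ikzf2 it ranked behind N1, and in Nrp1 and Ikzf4 it ranked behind a GFP-positive library.

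Other genes of Treg cells were read from the same fit. Of 28 Treg surface and effector genes, 26 were tested, 19 with a lower and 7 with a higher value in GFP-positive cells. The median log2 fold change was -0.22 beside 0.02 over all tested genes. Of all tested genes 48.4% were lower. Il10 had 13, 32 and 16 counts in N1 to N3 and 0, 1 and 15 in P1 to P3. Like Foxp3, it passed the filter through its GFP-negative libraries alone, so counts over the 26 are a description. At an unadjusted edgeR p below 0.05 there were 8 lower and 1 higher of the 26. Of all tested genes 10.3% had such a p and 5.97% were lower at such a p. Only Lag3, an inhibitory receptor, passed edgeR's test over all genes, beside 0.108% of all tested genes. It fell from 58.9 ± 21.0 to 14.5 ± 1.499 CPM (SD, n = 3 each; edgeR adjusted p = 0.0165), and its 3 GFP-positive values of 13.3 to 16.2 CPM lay below the lowest GFP-negative one of 44.3 CPM. Leaving out any library other than P3 ended the call of Lag3. Nt5e, the ecto-enzyme CD73 that makes adenosine, had 208, 163 and 196 CPM in N1 to N3 against 434, 367 and 247 CPM in P1 to P3 (edgeR adjusted p = 0.118, and 0.0144 without P3). For Klrg1, a receptor of effector T cells, the values were 58.5, 59.6 and 23.5 against 14.5, 15.2 and 20.1 CPM (edgeR adjusted p = 0.127). The costimulatory receptor gene Tnfrsf9 stood at 88.0, 112 and 48.5 against 34.5, 45.3 and 23.5 CPM (edgeR adjusted p = 0.174). These 4 genes had the smallest p of the list. Of others, named after their values were seen, Ctla4 had a log2 fold change of -0.41, Tigit -0.34 and Il2ra -0.19. Tnfrsf18 was at -0.04, Tnfrsf4 at -0.03, Icos at 0.11 and Ccr8 at 0.21, and none of these was called. Without P3 the list had 18 lower and 8 higher values and a median of -0.31. Lag3 and Nt5e were then called, among 42 of 11361 tested genes. Many of its genes are also expressed by activated T cells that are not Treg cells and by NK and CD8 T cells. The 6 markers of NK and innate lymphoid cells summed to 123, 164 and 80.9 CPM in N1 to N3 against 53.3, 54.9 and 867 CPM in P1 to P3. Tyrobp at 487 and Fcer1g at 302 CPM made up most of the sum in P3. Ncr1, Klrb1b, Eomes and Klrk1 were not highest there. Cd8a and Cd8b1 summed to 123, 59.1 and 32.7 against 51.8, 27.1 and 14.1 CPM. The part of such cells in the values of this list was not tested.

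Factors that induce FOXP3 or work with it gave 16 lower and 12 higher values among 28 tested, a median log2 fold change of -0.07, and 0 past the threshold (4 at an unadjusted p below 0.05, all lower, beside 10.3% of all tested genes in either direction and 5.97% lower; 2 called by DESeq2, Uhrf1 and Cbfb, beside 1.81% of all). Without P3 the list had 13 lower and 15 higher values, a median of 0.03 and 1 gene past the threshold, Uhrf1. It thus had no clear direction with or without P3. Uhrf1, which maintains DNA methylation when cells divide, had 32.0, 84.1 and 63.2 CPM in N1 to N3 and 11.6, 16.3 and 25.4 CPM in P1 to P3 (edgeR adjusted p = 0.124, and 0.0474 without P3). Cbfb, the partner subunit of RUNX factors, stood at 170, 154 and 139 against 88.2, 114 and 85.6 CPM (edgeR adjusted p = 0.142). Dnmt1, the maintenance DNA methyltransferase, had 81.4 ± 21.0 against 51.4 ± 12.9 CPM and overlapped. Ets1, a transcription factor of lymphocytes, had 863 ± 32.4 against 698 ± 57.0 CPM (SD, n = 3 each; edgeR adjusted p = 0.463).

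Corepressor partners of Ikaros factors, which belong to NuRD, SIN3 and CTBP complexes, were tested in 16 of 17 cases. There were 11 lower and 5 higher values, a median log2 fold change of -0.14, and 0 past the threshold (3 at an unadjusted p below 0.05, all lower, beside the same 10.3% and 5.97%; 1 called by DESeq2, Ctbp1, beside 1.81%). Ctbp1, a corepressor that Eos and Ikaros bind, had 132, 176 and 148 CPM in N1 to N3 and 51.3, 95.9 and 92.1 CPM in P1 to P3 (edgeR adjusted p = 0.151). All 3 GFP-positive values lay below the GFP-negative ones. Hdac1, the histone deacetylase of NuRD and SIN3, had 239 ± 20.2 against 169 ± 24.1 CPM (SD, n = 3 each), and Mbd3 of NuRD had 34.9 ± 6.39 against 22.1 ± 4.12 CPM. Mta2, another NuRD subunit, had 154 ± 19.2 against 120.0 ± 21.1 CPM and overlapped.

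Of the cereblon ubiquitin ligase, through which thalidomide-type drugs mark Ikaros and Aiolos for destruction in human cells, all 5 subunits were tested, 4 higher and 1 lower with a median log2 fold change of 0.03. The smallest adjusted p, 0.564 by edgeR, belonged to Ddb1, at 133 ± 8.501 against 107 ± 17.2 CPM (SD, n = 3 each). Of 16 neuropilin ligands and coreceptors 2 passed the filter. Sema4a, a ligand in immune cells, had 146 ± 29.7 against 107 ± 16.1 CPM and Sema4d had 303 ± 33.7 against 249 ± 41.3 CPM, both with overlap. Those that did not pass were named after their values were seen. Nrp2 and Flt1 had 51 and 46 counts in P3, and in the other 5 libraries only Flt1 had any, 4 counts in P2. Plxnb2, Vegfa, Plxnb1 and Sema3c likewise had 114, 83, 43 and 36 counts in P3 and at most 11 in any other library. Kdr, Plxna2, Plxna3, Plxna4 and Sema3a had 0 counts in P3. Around GARP and latent TGF-beta, 8 of 15 genes were tested, 6 lower and 2 higher with a median of -0.29. Furin, the protease that cleaves the TGF-beta precursor, stood at 681, 702 and 1144 against 426, 580 and 653 CPM (edgeR adjusted p = 0.379), and Tgfb1 at 74.6 ± 9.49 against 56.7 ± 13.2 CPM. In these last 3 lists 0 genes passed edgeR's test over all genes. Of their 5, 2 and 8 tested genes, Sema4a and Furin, 2 in all and both lower, had an unadjusted edgeR p below 0.05. Of all tested genes 10.3% had such a p and 5.97% were lower at such a p. DESeq2 also called 0, beside 1.81% of all tested genes.

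**Figure D4:**
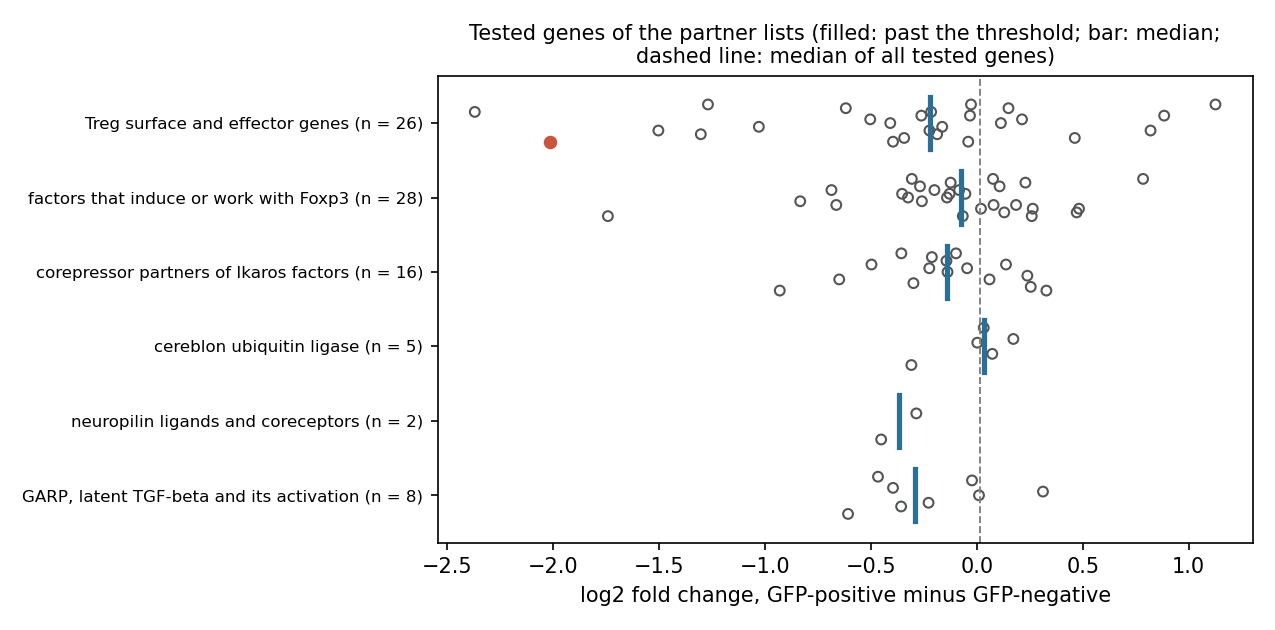
Log2 fold change (horizontal axis, GFP-positive minus GFP-negative) of each tested gene of 6 lists around the 9 genes, with list medians as bars and the median of all tested genes (0.02) as a dashed line. Lag3, the filled point, is the only gene past the threshold in these lists, and the Treg list has its median at -0.22.

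Genes whose log2 CPM followed the same course over the 6 libraries were sought among 9960 tested genes with established names. For Foxp3 these were Ccng2, a cyclin gene of cells leaving the cycle (Pearson r = 0.99), Fbxo27 (0.98) and Mtch2 (0.98). Ccng2 had 124, 153 and 97.8 CPM in N1 to N3 and 58.5, 64.4 and 80.9 CPM in P1 to P3, and the polycomb gene Pcgf6 ran opposite to Foxp3 (r = -0.998). For Ikzf2 the nearest were Socs5 (0.99), Samsn1 (0.98) and Rcc2 (0.97), with Rdh12 opposite (-0.99). For Ikzf3 they were Adgrg5 (0.98), Kcna3 (0.97) and Mtmr6 (0.97), with Skp1a opposite (-0.99). Kcna3, the main potassium channel of effector memory T cells, had 93.6, 95.7 and 61.8 against 34.3, 48.5 and 43.6 CPM. These are descriptions over 6 points that share libraries and depth, picked as the extremes of all genes searched, and r above 0.95 occurred for 19, 8 and 18 genes in the 3 searches.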

How the data were processed

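Per the labels' protocols, cDNA of sorted colon CD4 T cells was made with oligo-dT and random primers, PCR-amplified and cut with a transposase kit, which keeps neither strand nor molecular identifiers. The authors deposited raw counts per gene and a TPM table, each with 1 column per library. STAR 2.7.10b, fastp 0.23.3, deepTools 3.5.1, SAMtools 1.17 and the build mm10 are named in the submitters' processing notes, which give no read counter and no annotation. Coordinates are 1-based, from GENCODE M21 (mm10), which 54587 of 55335 identifiers matched with their version.

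Groups and replicate numbers came from the sample titles. The test was edgeR 4.0.16 (R 4.3.3), quasi-likelihood with TMM factors, robust dispersions, its default filter (minimum count 10) and no covariate, on all 6 libraries, with Benjamini-Hochberg adjustment over 11074 genes and a threshold of 0.05. CPM use the TMM-scaled sum over tested genes, and SEs were derived from the fold change and F. TPM were used as deposited for levels between genes. Likeness was Pearson r of log2 CPM with a prior count of 2.

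Alternatives were library size alone, RLE factors, no filter, 1 CPM in 3 libraries, DESeq2 1.42.0, limma-voom (limma 3.58.1), limma with log2(TPM + 1) or log2(TPM + 0.1), a replicate block, a threshold of 0.01, and leaving out each library. The tests were checked on simulated counts with known changes. No pair of replicates was a duplicate (chi-square per degree of freedom at least 11.4). The 9 genes, the lists around them and the naming rule (the 9 genes, Tcf7, up to 4 genes of each list with the smallest p, and for Foxp3, Ikzf2 and Ikzf3 the 3 most alike genes and the least alike one) were chosen with earlier results of these data known. Flicr and the genes that overlap Foxp3 or Ikzf5 were added after their overlap was seen.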

Additional observations from a re-analysis of the deposited data

How the results depend on the processing

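Of the 7 tested genes, 0 passed the threshold under every alternative except no filter, where Foxp3 (edgeR adjusted p = 2.76e-09) and Ikzf3 (edgeR adjusted p = 0.0104), 2 in all, were called among 20982 genes; over all alternatives the adjusted p ranged up to 0.611 for Foxp3 and 0.735 for Ikzf3. Foxp3, Ikzf1, Ikzf2, Ikzf3, Ikzf5 and Nrp1 kept their sign in all 16 alternatives. Ikzf4 turned positive when N2 (0.20), P1 (0.23) or P2 (0.07) was left out, and reached -0.83 when P3 was. Genes called over the whole table, 12 by edgeR with TMM, numbered 19 with library size alone, 373 with no filter, 200 by DESeq2, 5 by limma-voom, 1 with log2(TPM + 1), filtered or not, 0 with log2(TPM + 0.1) and 0 at a threshold of 0.01. Leaving out 1 library gave 0 to 42 genes: 42 when P3 was left out, 3 for N2, 1 for N1 and 0 for N3, P1 or P2; the cause was not tested.

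With the replicate number as a block, 81 genes passed, 0 of them among the 7, and Ikzf3 had an edgeR adjusted p of 0.129. Deviations from the group means correlated at 0.104, 0.0971 and 0.104 between libraries of the same number, and at -0.124 to 0.0195 between others. These values are small and tied to each other, because each group was centred on its own mean. They cannot show whether a replicate number stands for shared mice, which the labels do not state. In the fit with the block Lag3, Tnfrsf9 and Gzmb of the Treg list, Uhrf1 and Ctbp1 were called, all lower. DESeq2 called Lag3, Tnfrsf9, Klrg1, Areg, Il2rb and Nt5e of the Treg list, 6 of 26 beside 1.81% of all tested genes. By edgeR it was 1, beside 0.108% of all tested genes. Limma-voom, log2(TPM + 1) and log2(TPM + 0.1) each called 0 of that list. With no filter edgeR called 6 of its 28 genes, beside 373 of 20982 genes. Lag3, Tnfrsf9, Klrg1, Areg and Capg were lower and Nt5e was higher. In the other lists that fit called Uhrf1, Cbfb, Ctbp1 and Furin, all lower, and Plxnb2, higher. Depth limits Lrrc32, Gpr83 and Ikzf5, none of which had more than 62 counts in a library.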
